A study of Bos taurus with 20 samples.

Results

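The miR-378 family was examined in small RNA libraries from bull spermatozoa. Its members were taken by name, as every entry of the deposited miRNA table called bta-miR-378 or bta-miR-378 followed by a letter, which gave 4 of the 1029 miRNAs listed, namely bta-miR-378, bta-miR-378b, bta-miR-378c and bta-miR-378d. The libraries came from frozen-thawed semen of 20 mature Holstein-Friesian bulls used for artificial insemination, with 1 library per bull. An adjusted fertility score put 10 of them in the high (HF) and 10 in the low (LF) fertility group, and none was given a treatment. Straws from several ejaculates of a bull were pooled, and the cells were put through a somatic cell lysis buffer ahead of the RNA extraction, and a value thus stands for a mix of a bull's ejaculates.

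miRNAs are short RNAs that guide Argonaute proteins to matching mRNAs, and the bases near the 5′ end, called the seed, decide most of the matching. The founding member of the miR-378 family is made from an intron of PPARGC1B, which encodes PGC-1β, a coactivator of genes for mitochondrial respiration. In mammals it is known for its part in energy and lipid metabolism and is abundant in muscle, heart and brown fat. Mature sequences were not used here, so which bases the members share was not compared.

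In the RefSeq annotation of ARS-UCD2.0 all 4 names matched, to 5 miRNA genes. bta-miR-378 has 2 genes, MIR378-1 on chromosome 7 within PPARGC1B and MIR378-2 on chromosome 4 within CALCR, the calcitonin receptor gene. MIR378C lies on chromosome 24 within ZNF521, which encodes a zinc finger protein, and MIR378D on chromosome 19 within MSI2, which encodes an RNA-binding protein. MIR378B, on chromosome 15, lies within no annotated gene. Thus 4 of the 5 genes are inside a protein-coding gene, and each is on a chromosome of its own. This annotation is of a later assembly than the one the authors used, so only names and neighbours were taken from it.

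The values are normalized counts, which are reads scaled to the size of a library (CPM) and divided by a TMM factor. Nearly all low values of a library were multiples of a fixed step, the worth of 1 read, and values were divided by this step to recover reads, a few of which came out as fractions. The libraries held 103204 to 3097581 reads on miRNAs, with both extremes among the HF bulls (HF replicate 17 and HF replicate 2). A miRNA was taken as measurable in a library above 3 reads, a floor that equals a normalized count of 1.19 in HF replicate 2 and 27.6 in HF replicate 17. PCR copies of a molecule are not independent, so floors and intervals speak of counting error alone. The labels give no batch. Semen was collected at more than 1 center for artificial insemination, and the labels do not say which bull came from which. Markers of sperm and testis (bta-miR-34b, bta-miR-34c, bta-miR-449a and bta-miR-449b) were at 1 or more in every bull for 4 of 4, with summed normalized counts of 32064 to 77170 in HF and 25819 to 54546 in LF bulls.

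Of the 4 members, bta-miR-378 and bta-miR-378c were counted in all 20 bulls, while bta-miR-378b and bta-miR-378d were nearly absent. Together the family made up 0.0145% ± 0.00533 (SD, n = 20) of the normalized counts. By mean level over the bulls, bta-miR-378 was in place 152 and bta-miR-378c in place 232 among the 1029 miRNAs, with bta-miR-378b in place 595 and bta-miR-378d in place 600. Within single libraries the place of bta-miR-378 ran from 113 to 181 and that of bta-miR-378c from 172 to 306.

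bta-miR-378, the member with the PPARGC1B gene, had a normalized count of 116 ± 43.3 (SD, n = 20), on 21.5 to 543 reads per library. In HF bulls its lowest, median and highest values were 62.4, 99.6 and 216, and in LF bulls 62.7, 113 and 177. The values of both groups overlapped, with 7 of 10 HF bulls inside the LF range and all 10 LF bulls inside the HF range. The HF bulls outside it were HF replicate 2 at 216 and HF replicate 17 at 198 above, and HF replicate 3 at 62.4 below.

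The libraries spread more in bta-miR-378 than read counting alone would give. The coefficient of variation over the 20 bulls was 37.2%, whereas counting alone gives a median of 9.74% at these read numbers. In the deepest library, HF replicate 2, the 95% Poisson interval of the normalized count was 198 to 235, and in HF replicate 3 it was 45.7 to 81.6. These intervals did not overlap. With 1 library per bull, spread from library preparation cannot be told apart from spread between bulls. HF replicate 17 is the shallowest library, and its 198 rests on 21.5 reads, rounded down for its interval of 119 to 295. The highest of its group in LF bulls, LF replicate 8, was at 177 on 221.5 reads.

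bta-miR-378c had a normalized count of 28.7 ± 13.7 (SD, n = 20), on 5 to 97 reads per library. Its lowest, median and highest values were 11.3, 24.3 and 54.1 in HF bulls and 9.03, 26.3 and 58.7 in LF bulls. All 10 HF bulls were inside the LF range, and 8 of 10 LF bulls inside the HF range. The coefficient of variation was 47.8% over the 20 bulls, against a median of 19.7% from counting alone. The highest values were those of LF replicate 11, from 19 reads, and HF replicate 9, from 28 reads. The lowest were those of LF replicate 7 and HF replicate 3, each from 9 reads.

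**Figure D1:**
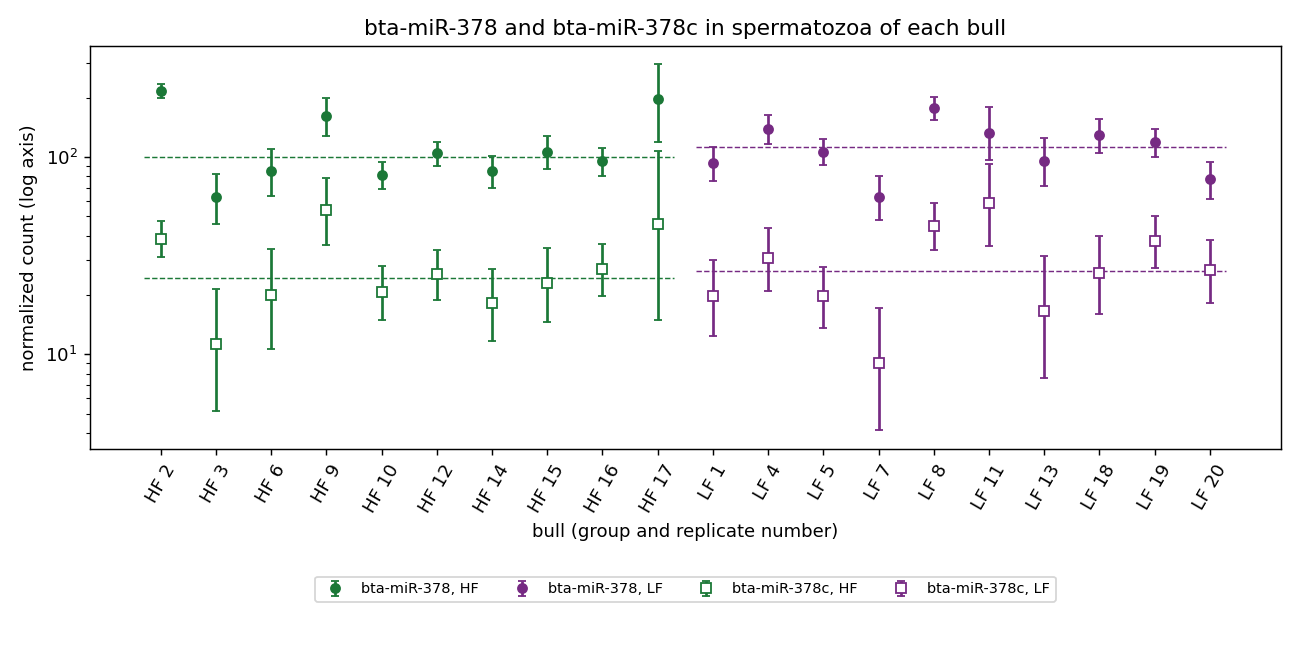
Normalized counts of bta-miR-378 (filled circles) and bta-miR-378c (open squares) on a log axis for each of the 20 bulls, HF in green and LF in purple, with 95% Poisson intervals for counting error and dashed lines at the group medians. The median lines of bta-miR-378 lie at 99.6 in HF and 113 in LF bulls and those of bta-miR-378c at 24.3 and 26.3, and the points of both groups overlap.

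bta-miR-378b was counted in 4 of 20 bulls, on 6 reads in all. These were HF replicates 2, 12 and 14 with 1 read each and LF replicate 4 with 3 reads. bta-miR-378d was also counted in 4 of 20 bulls, on 5 reads in all, with 2 reads in HF replicate 16 and 1 read each in HF replicate 3, LF replicate 4 and LF replicate 20. LF replicate 4 was the only bull with reads of both, and 13 bulls had reads of neither. Neither miRNA was above 3 reads in any library, so no fold change between HF and LF is given for them, and levels under the floor of a library were not detectable at this depth.

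The members were compared with each other within each bull, as differences in log2(normalized count + 1). bta-miR-378 was above bta-miR-378c in 20 of 20 bulls, by a mean log2 difference of 2.04 ± 0.37 (SD, n = 20; adjusted p = 3e-05, two-sided permutation test of the paired differences with Benjamini-Hochberg adjustment over 3 pairs of neighbours). The normalized count of bta-miR-378 was 2.26 to 6.94 times that of bta-miR-378c, with a median of 4.42. bta-miR-378c was above bta-miR-378b in 20 of 20 bulls (adjusted p = 3e-05, same test), and these are the smallest values the test can give. Since bta-miR-378b was at or under the floor, the size of that difference was taken from the reads summed over all libraries. They were 611 for bta-miR-378c and 6 for bta-miR-378b, a ratio of 102 with a 95% exact interval of 46.5 to 279 for counting error. For bta-miR-378d the ratio was 122, with an interval of 52.1 to 378. Single libraries moved both, to 193.3 (65.8 to 940.2) for bta-miR-378b without LF replicate 4 and to 189 (64.2 to 918) for bta-miR-378d without HF replicate 16. bta-miR-378b and bta-miR-378d had a mean log2 difference of -0.016 ± 0.55 (SD, n = 20; permutation test, adjusted p = 0.90). They were equal in 13 of 20 bulls and never above the floor, so this test could hardly find a difference. The order of the members was thus bta-miR-378, bta-miR-378c and then both rare members, whose own order cannot be told at so few reads. Values are per mature miRNA, not per base, and such miRNAs are of nearly equal length. Those of bta-miR-378 were taken as they stand, although most ended in 0.5 of a read, as given below.

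bta-miR-378 and bta-miR-378c varied together over the bulls. Their log2 values had a Pearson r of 0.84 (permutation p = 2e-05, adjusted p = 6e-05 over 3 relations) and a Spearman rho of 0.79 (permutation p = 6e-05, adjusted p = 0.00018). Within HF bulls r was 0.91 and within LF bulls 0.80 (n = 10 each). Without HF replicates 2 and 17, which were farthest from the median of bta-miR-378, r was 0.86. Values of a library share its depth and TMM factor, which enter both members alike. The part of this shared scaling in their correlation was not tested. Separately, the depth of a library was related to each member, on values already scaled by depth. Over the 20 bulls, log2 of the reads per library had an r of -0.22 with bta-miR-378 (permutation p = 0.36, adjusted p = 0.36; rho -0.11, permutation p = 0.67, adjusted p = 0.69). With bta-miR-378c the r was -0.26 (permutation p = 0.265, adjusted p = 0.36; rho -0.095, permutation p = 0.69, adjusted p = 0.69). Without HF replicate 17 and LF replicate 11, the shallowest libraries, these r became 0.19 and 0.16, and within groups they lay at -0.27 and -0.30 in HF and at -0.11 and -0.25 in LF bulls.

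**Figure D2:**
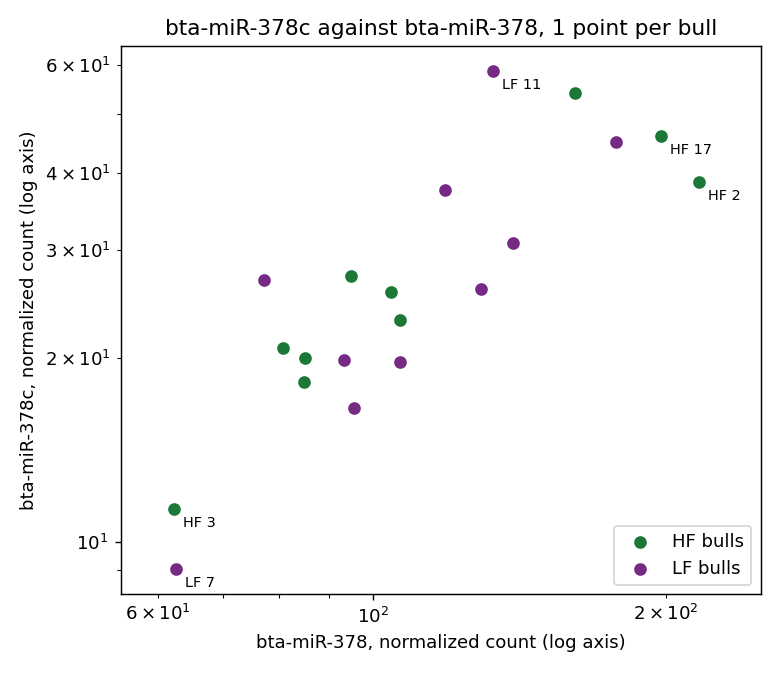
Normalized count of bta-miR-378c against that of bta-miR-378, both on log axes, with 1 point per bull, HF in green and LF in purple. The points rise together (Pearson r of 0.84 on log2 values), from HF replicate 3 and LF replicate 7 at the lower left to HF replicates 2 and 17 at the right, with LF replicate 11 highest in bta-miR-378c.

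Members of a family with similar sequences can receive the same reads, so equal and fractional values were looked for. Every pair of members had equal values above 0 in 0 of 20 libraries. bta-miR-378 had a value that ended in 0.5 of a read in 16 of 20 libraries, while bta-miR-378b, bta-miR-378c and bta-miR-378d were whole in all 20, within 0.01 reads. Fractional reads were found for 44 of the 1029 miRNAs. Of the 43 of these that matched a RefSeq name, 30 had more than 1 gene there, as bta-miR-378 does, against 59 of 964 of those with whole reads. Which step gave these fractions is not given in the sources used here, and whether bta-miR-378c shared reads with bta-miR-378 was not tested. The level of bta-miR-378 relative to bta-miR-378c, as a ratio or a share, depends on that step.

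The balance between both abundant members was also compared, as it does not depend on how libraries are scaled against each other. bta-miR-378c took 19.4% ± 4.38 (SD, n = 20) of the reads of both, from 12.7% in LF replicate 7 to 30.6% in LF replicate 11. HF replicate 2 had 15.2%, from 640 reads, with a 95% Wilson interval of 12.6% to 18.1%. Of the 20 Wilson intervals, 18 held the mean share of both groups, 19.2% in HF and 19.6% in LF bulls. The exceptions were HF replicate 2, below both means, and LF replicate 11, above them at 20.6% to 43.0%. Intervals from few reads were wide, such as 8.51% to 37.9% in HF replicate 17, and the means came from these same libraries. The share of bta-miR-378 in the family's normalized counts averaged 80.5% ± 2.88 (SD, n = 10) over the HF bulls, against 80.2% ± 5.66 (SD, n = 10) over the LF bulls. The difference of 0.378 percentage points was smaller than the SD of either group. No difference between the group means was found (p = 0.85, permutation test, two-sided), and 4 of 10 HF bulls were above the LF median.

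**Figure D3:**
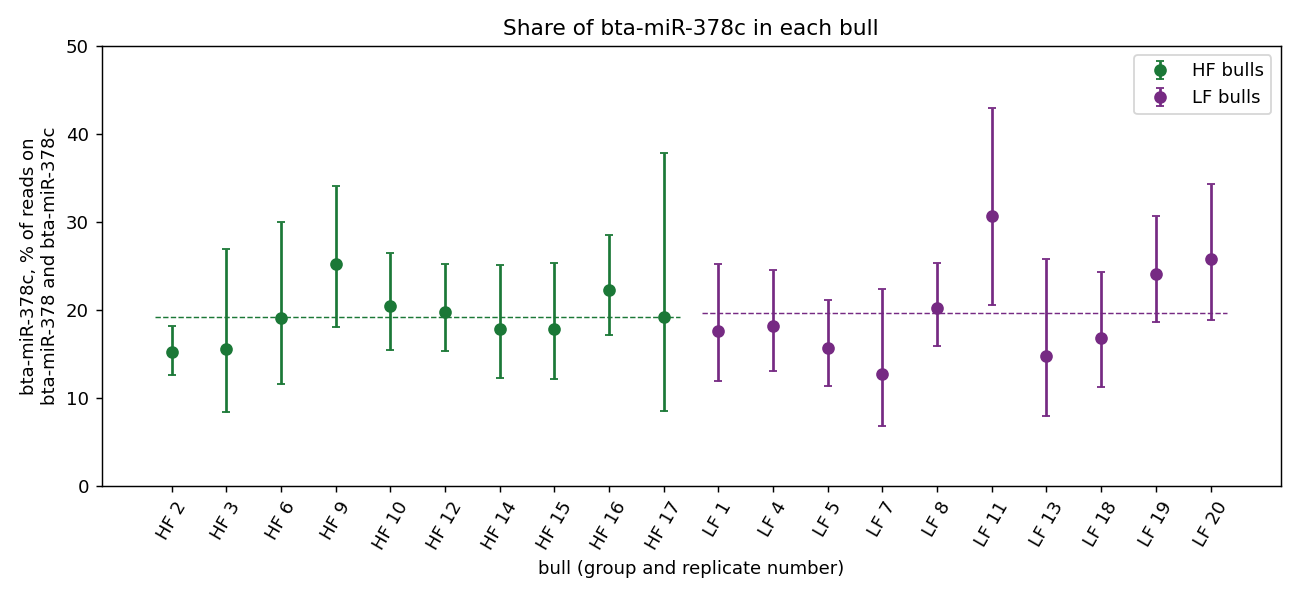
Percentage of the reads of bta-miR-378 and bta-miR-378c together that were bta-miR-378c, for each bull, HF in green and LF in purple, with 95% Wilson intervals and dashed lines at the group means. Most intervals cross both lines, LF replicate 11 is highest at 30.6%, and HF replicate 2 has the narrowest interval, 12.6% to 18.1%.

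Whether the family differed with fertility was tested between HF and LF bulls. bta-miR-378 and bta-miR-378c were at about the same mean level in both groups, and neither passed the test. Of the 4 members, 2 passed the filter on low counts, and 0 of these were past the thresholds of the study, a fold change over 1.5 together with a p-value under 0.05 before adjustment. Among all 435 miRNAs tested, 9 were past both, which is 2.07%, and 0 had an adjusted p-value under 0.05 with limma, while 15 had an unadjusted p-value under 0.05. The edgeR and DESeq2 tests likewise put 0 members past both thresholds.

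For bta-miR-378 the HF bulls had a mean normalized count of 119 ± 53.1 (SD, n = 10) and the LF bulls one of 113 ± 33.5 (SD, n = 10). On the log2(normalized count + 1) scale, the fold change of HF over LF was 0.020 (standard error 0.23, adjusted p = 0.99 from limma). Its 95% interval ran from -0.46 to 0.50, which is 0.727-fold to 1.41-fold and so did not reach 1.5-fold in either direction in this fit. Intervals of the alternative fits are not given. The mean was higher in HF bulls but the median was lower, and 3 of 10 HF bulls were above the LF median. The log2 fold change was -0.087 without HF replicate 2 and -0.073 without HF replicate 17, and -0.21 without both (unadjusted p = 0.34 from limma).

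For bta-miR-378c the HF mean was 28.5 ± 13.5 (SD, n = 10), against an LF mean of 28.9 ± 14.7 (SD, n = 10). Its log2 fold change was 0.0073 (standard error 0.31, adjusted p = 0.99 from limma), and 4 of 10 HF bulls were above the LF median. The 95% interval ran from -0.62 to 0.64, which is 0.649-fold to 1.56-fold. A 1.5-fold difference in bta-miR-378c could therefore not be told from none at this depth and spread. With the TMM scaling removed, or with scaling by median ratios, the log2 fold changes of both members turned negative, the lowest being -0.053.

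The median log2 fold change of both tested members was 0.014, and that of all 435 miRNAs was 0.0051. Of the 435, 24 had a smaller absolute log2 fold change than bta-miR-378 and 5 a smaller one than bta-miR-378c. The residual SD between bulls within a group was 0.52 on the log2 scale for bta-miR-378 and 0.70 for bta-miR-378c, with a median of 0.70 over all tested. From the highest down these were in places 296 and 219 of 435.

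**Figure D4:**
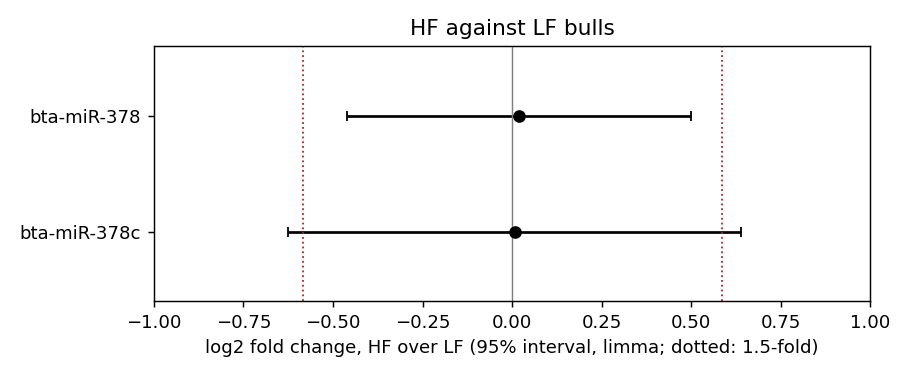
Log2 fold change of HF over LF bulls for bta-miR-378 and bta-miR-378c with 95% intervals from limma, and dotted lines at 1.5-fold in each direction. Both points lie next to 0, the interval of bta-miR-378 (-0.46 to 0.50) stays inside the dotted lines, and that of bta-miR-378c (-0.62 to 0.64) crosses them.

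The genes that hold the family also hold other miRNA genes. CALCR, around MIR378-2, holds those of miR-653 and miR-489. bta-miR-653 was counted in 18 of 20 bulls at 22.3 ± 15.4 (SD, n = 20), with 23.5 ± 17.3 (SD, n = 10) for HF, 21.2 ± 14.1 (SD, n = 10) for the LF group and a log2 fold change of 0.17 (standard error 0.67, adjusted p = 0.98 from limma). bta-miR-489 was at 0 in all 20 bulls. ZNF521, around MIR378C, holds the gene of miR-12051, which was at 0 in every bull. PPARGC1B and MSI2 hold no other miRNA gene in this annotation. The table does not tell from which of its genes the reads of bta-miR-378 came.

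Other miRNAs of metabolic genes were counted for comparison. Of bta-miR-33a, bta-miR-33b, bta-miR-103 and bta-miR-107, which lie in introns of genes for sterol regulation and coenzyme A synthesis, 2 could be tested and 0 of these passed in either direction, with a median log2 fold change of 0.15. bta-miR-103 was at 290.5 ± 58.3 and bta-miR-107 at 149 ± 32.3 (SD, n = 20 bulls), both in the range of bta-miR-378 or above it. bta-miR-33a was counted in 7 bulls and bta-miR-33b in none. Of the miRNAs known from brown fat (miR-193a, miR-193b and miR-365, with 6 entries over both arms), 1 could be tested, bta-miR-193a-5p at 6.77 ± 4.27 (SD, n = 20), and 0 passed. bta-miR-193a and bta-miR-365-5p were at 0 in every bull.

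Because miR-378 is abundant in muscle, miRNAs of striated muscle were measured beside it. All 7 had reads in some bull, and 2 of 7 were at 1 or more in every bull. These were bta-miR-499, at 527 ± 113, and bta-miR-1, at 60.6 ± 30.0 (SD, n = 20). The others were low, with bta-miR-133a at 7.31 and bta-miR-206 at 3.03, and bta-miR-133b, bta-miR-208a and bta-miR-208b at means under 1. The summed level of the 7 was 441 to 685 in HF and 386 to 861 in LF bulls, and 0 of the 4 tested passed. Markers of blood and leukocytes (6 entries, 3 at 1 or more in every bull, none at 0 throughout) summed to 65.9 to 239 in HF and 51.2 to 301 in LF bulls, with 0 of 5 past the thresholds. Markers of epithelium (6 entries, 5 at 1 or more in every bull, none at 0 throughout) summed to 6544 to 13138 in HF and 9680 to 15554 in LF bulls, with 0 of 6 past them. All 6 had a log2 fold change below 0, with a median of -0.40, against 0.0051 over all 435 miRNAs tested. An unadjusted p-value under 0.05 was found for 2 of the 6 (bta-miR-429 and bta-miR-200a, adjusted p = 0.94 each from limma) and for 15 of the 435. How far these 6 vary together over the bulls was not tested, so they are not 6 separate results. By RT-PCR on the sperm RNA, the study detected no CDH1, PTPRC or KIT, its markers of epithelial cells, leukocytes and germ cells. Whether any such cells had a part in the levels of the family was not tested here. In these libraries fewer cells of a type and less RNA per cell cannot be told apart. The paper also describes non-coding RNAs that sperm gain from epididymosomes on their way through the epididymis. RNA gained in this way cannot be told apart here from RNA of other cells.

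The miRNAs whose pattern over the 20 bulls was most like that of bta-miR-378 were ranked by Spearman rho, among those at 1 or more in every bull. bta-miR-378c was first, with 0 miRNAs above it. Outside the family, 285 miRNAs were ranked, with a median rho of -0.0045. The 5 highest were bta-miR-11972 with a rho of 0.69, bta-miR-24 and bta-miR-2284k with 0.50 each, bta-miR-29d-5p with 0.50 and bta-miR-2483-3p with 0.46. bta-miR-11972 had a mean normalized count of 14.8, on a median of 10.5 reads per library, and a rho of 0.62 within HF and 0.68 within LF bulls. In HF replicate 17, where 1 read equals a normalized count of 9.19, 1 read was enough for a miRNA to be ranked. For bta-miR-24 the rho was 0.90 within HF but 0.18 within LF bulls, and this difference was not tested. These values describe the bulls measured here and, being the highest of many, carry no test.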

How the data were processed

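Small RNA libraries of spermatozoa from 20 bulls were analysed. Per the study's methods, the authors clipped adapters (Cutadapt), filtered reads by length and against rRNA, tRNA, snRNA and snoRNA, mapped them with Bowtie to ARS-UCD1.2 plus Y, and counted mature miRBase miRNAs (miRDeep2). The submitters' processing notes list FastQC 0.11.8, cutadapt 2.6 and edgeR 3.5. The deposited values are a signal per miRNA, read counts scaled to library size (CPM) and divided by a TMM factor, and the bull is the replicate.

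The value of 1 read was taken as the commonest low value of a library, or as the part of it that made at least 90% of values whole. In LF replicate 18 the commonest value was 2 reads, which gives 790140 reads. Of all values above 0, 95.0% were whole. Reads with a fraction were rounded down for the Poisson and Wilson intervals and for the share of bta-miR-378c. miRNAs under 1 in at least 10 of 20 bulls were removed, and HF and LF were compared with limma 3.58.1 (R 4.3.3) with a variance trend on log2(normalized count + 1), with Benjamini-Hochberg adjustment over 435 miRNAs. Single values were compared with permutation tests (100000 resamples, scipy 1.17.1). edgeR 4.0.16 and DESeq2 1.42.0 were run on the recovered reads, rounded to whole numbers, without HF replicate 6, whose lowest value was a fraction of the step of 1 read. The fits and the permutation tests of means, but not those of correlations, were tested on simulated data. Named are the family, the 5 miRNAs most like bta-miR-378, and members of the lists given, while miRNAs in the same host genes were added after the values were seen. Members and lists were chosen with earlier results of these data known.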

Additional observations from a re-analysis of the deposited data

Results flagged for a closer look

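In 10 groups of 10 bulls (4 members and the share of bta-miR-378, in HF and in LF), the gap of the highest or lowest bull to the nearest other was compared with the range of the group and set against Dixon's 95% critical value, past which chance puts about 0.5 such groups. bta-miR-378b in LF bulls was the 1 group past it. LF replicate 4 had 3 reads, a normalized count of 2.97, and the other LF bulls were at 0, so the gap was 1 times the range. With all other bulls at 0 this gap is 1 whatever the value, and the critical value and the number by chance do not hold for the 4 groups of bta-miR-378b and bta-miR-378d, which are nearly all 0.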

How the results depend on the processing

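In every alternative run, 0 members of the family were past both thresholds for HF against LF. Apart from leaving out each bull in turn, 11 alternatives were run. Over these the log2 fold change ran from -0.21 to 0.13 for bta-miR-378 and from -0.16 to 0.014 for bta-miR-378c. All ends of these ranges came from runs on fewer bulls. The highest were edgeR tests without HF replicate 6, for bta-miR-378 the quasi-likelihood test. The lowest were without the deepest and the shallowest library. In the alternatives on all 20 bulls, the log2 fold changes ran from -0.042 to 0.077 for bta-miR-378 and from -0.053 to 0.0085 for bta-miR-378c. Without the TMM scaling they were -0.042 for bta-miR-378 and -0.053 for bta-miR-378c, with median-ratio scaling -0.00071 and -0.013, and without the deepest and the shallowest library, chosen after seeing the data, -0.21 and -0.16. For bta-miR-378c it was -0.043 with DESeq2 and -0.032 with the likelihood ratio test on all 20 bulls, the latter also added after seeing the data. Leaving out 1 bull at a time, the value lay between -0.087 and 0.11 for bta-miR-378 and between -0.15 and 0.14 for bta-miR-378c, with 7 of 20 fits below 0 for each. The lowest unadjusted p-value over these fits was 0.606 (limma). The number of all miRNAs past both thresholds, 9, became 4 with a pseudocount of 5, 4 with at least 1 required in every bull, 15 with no filter, 16 with the quasi-likelihood test, and 17 with the likelihood ratio test or DESeq2, these on 19 bulls without HF replicate 6. With all 20 bulls the likelihood ratio test gave 12. The limma number lay between 7 and 15 with each bull left out, the 15 being without HF replicate 6. The difference between bta-miR-378b and bta-miR-378d was 0.00027 with a pseudocount of 5 and 0.010 in LF bulls alone. The mean log2 difference of bta-miR-378c over bta-miR-378b, 4.55, was 2.59 with a pseudocount of 5. The difference of bta-miR-378 over bta-miR-378c kept its direction and side of the threshold in the alternatives run. The difference in the share of bta-miR-378, 0.378 percentage points, was 1.15 from pooled values, which have no test, and 0.313 without HF replicate 17. Why these values moved was not tested. The labels pair no HF bull with an LF bull, so HF and LF were compared unpaired.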
